A study of Mus musculus with 4 samples.

Results

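The genes described here are 35 imprinted genes, that is, genes expressed mainly from the copy inherited from 1 parent, measured in skeletal stem cells of mice. They were taken from a fixed list of symbols (Igf2 left out) and matched through the GRCm38 annotation to the 55487 genes of the count table. All 35 were found once each, and 34 of them were among the 17120 genes with enough reads to be tested. Of the 35, 13 are assigned to the maternal copy and 21 to the paternal copy, while for Gnas the expressed copy depends on the transcript. These assignments are textbook knowledge and can be bound to a tissue, as for Ube3a below. The counts do not tell the parental copies apart.

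The cells were sorted by flow cytometry from collagenase-digested metaphyses of the long bones of wild-type mice after a sham operation (2 libraries) or after ovariectomy (2 libraries), the removal of the ovaries and with them of the main source of oestrogen. All 4 libraries carry the time 8 weeks, which the labels do not tie to age or to the interval after surgery, and the labels give no strain. The sort used antibodies to CD51, CD200, CD105, CD90 and 6C3 and to the blood and vessel antigens CD45, Ter119 and Tie2, and the gate on each is not in the labels. Nothing in the labels ties the libraries of a group to different mice, so the p-values reflect only how much these 4 libraries vary, possibly for technical reasons. The series title sets the comparison in the progression of osteoporosis.

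Imprinted genes mostly lie in clusters in which DNA methylation, set differently in egg and sperm at a control region, decides which copy is used. Long non-coding RNAs such as Kcnq1ot1 and Airn silence neighbouring genes on the copy that makes them. Many of the proteins act on growth, with paternally expressed genes often promoting it and maternally expressed genes often restraining it, and a group of them is highly expressed in the embryo and lower in adult tissues.

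The libraries held between 18291436 and 23721078 counts. Levels below are CPM, that is, counts relative to the TMM-scaled library total. In this unit 1 count equals 0.0423 to 0.0519 CPM, depending on the library. Groups were compared with the quasi-likelihood test of edgeR over all 17120 genes, a gene counted as changed where its Benjamini-Hochberg adjusted p was under 0.05, and fold changes are ovariectomy over sham. Over all genes, 510 rose and 206 fell, so that 71.2% of the changed genes were higher, and 82.2% were with library totals as the only scaling, which moved the median log2 fold change of all genes by 0.11. Every change called below was lost when either ovariectomy library was left out, since edgeR then called 0 genes of all those tested (1788 without ovariectomy 1 and 1618 without ovariectomy 2 at an unadjusted p under 0.05).

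Of the 34 imprinted genes tested, 4 fell after ovariectomy and 0 rose. The genes that fell were Peg3, Slc38a4, Grb10 and Kcnq1ot1, each by between 1.67-fold and 2.07-fold. In bulk samples, fewer cells of a type and less RNA per cell cannot be told apart. Among all genes tested, 4.18% changed, 2.98% rising and 1.20% falling. Of the imprinted genes 11.8% changed. The 4 genes were all among the 14 members with a mean of at least 20 CPM, a level at which 9.28% of all genes changed and 3.07% fell. At an unadjusted p under 0.05 there were 9 members, where 18.4% of all genes passed. DESeq2 called 5 members lower and 1 higher, while it called 8.27% of all genes. With limma-voom, 4 members were lower and 0 higher, beside 5.53% of all genes called. The median log2 fold change of the members was -0.17, beside -0.02 for all genes. With library totals as the only scaling these medians were -0.05 and 0.09, and with limma-voom -0.10 and 0.01. Without ovariectomy 2 they were -0.35 and -0.04, and without ovariectomy 1 -0.10 and -0.03. Without sham 1 they were -0.27 and 0.03, and without sham 2 -0.13 and 0.02. Both ovariectomy libraries lay below both sham libraries for 13 members and above them for 6, and for 15 members the groups overlapped. Over all genes the same held for 23.9% and 25.5%. The 6 members above were Phlda2, Sgce, Ndn, Ube3a, Gnas and Rasgrf1, and none of them passed.

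**Figure D1:**
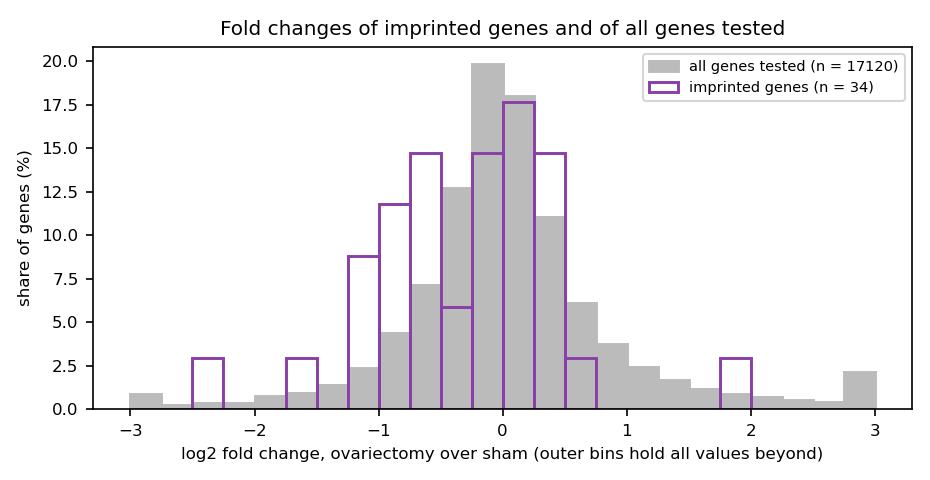
Share of genes (vertical axis, percent) by log2 fold change of ovariectomy over sham (horizontal axis, bins of 0.25) for the 34 tested imprinted genes (purple outline) and all 17120 genes tested (grey). The members' median is -0.17 and that of all genes -0.02, and 21 members lie below 0 and 13 above.

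Peg3, a zinc-finger DNA-binding protein made from the paternal copy, had the smallest p. Its level was 398 (sham 1), 362 (sham 2), 204 (ovariectomy 1) and 225 CPM (ovariectomy 2). The ovariectomy libraries were the 2 lowest, with a gap to the sham libraries wider than the distance within either pair. Peg3 (ENSMUSG00000002265, chromosome 7, 6703892 to 6730431, minus strand, GRCm38) thus went from 380 ± 25.7 to 215 ± 14.8 CPM (mean ± SD, n = 2 per group), a 1.77-fold decrease (log2 fold change -0.82 ± 0.12 SE, edgeR adjusted p = 0.0119).

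Slc38a4, a transporter of neutral amino acids expressed from the paternal copy, showed the largest decrease of the 4. Its 36.1 and 33.0 CPM after the sham operation compared with 16.4 and 17.0 CPM after ovariectomy, without overlap. On chromosome 15 (96994820 to 97055956, minus strand), it fell 2.07-fold (log2 fold change -1.05 ± 0.17 SE, edgeR adjusted p = 0.0201).

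Grb10 is an adaptor protein that dampens signalling of the insulin and IGF1 receptors. It is made from the maternal copy in most tissues. It was the most abundant member per kilobase of exon, at a mean of 44.0 CPM per kb over the 4 libraries, ahead of Peg3 at 22.3 CPM per kb. Grb10 stood at 545 and 456 CPM with a sham operation, compared with 300.2 and 299.5 CPM in ovariectomy 1 and 2. The ovariectomy libraries were nearly equal while the sham libraries differed, and the groups did not overlap. The gene (chromosome 11, 11930508 to 12038683, minus strand) fell 1.67-fold (log2 fold change -0.74 ± 0.12 SE, edgeR adjusted p = 0.0211).

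Kcnq1ot1, the long non-coding RNA that runs antisense through Kcnq1 on the paternal copy, was at 56.6 and 49.95 CPM after the sham operation against 30.1 and 28.9 CPM after ovariectomy. Again both ovariectomy libraries lay below both sham libraries. It fell 1.81-fold (chromosome 7, 143203458 to 143296549, minus strand, log2 fold change -0.85 ± 0.15 SE, edgeR adjusted p = 0.0254). Its annotated exon spans 93092 bases, so that its level per length was low, at 0.445 CPM per kb. Kcnq1 itself, on the other strand, had between 9 and 16 counts per library, and the strand setting of the counting is not given in the sources used here.

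**Figure D2:**
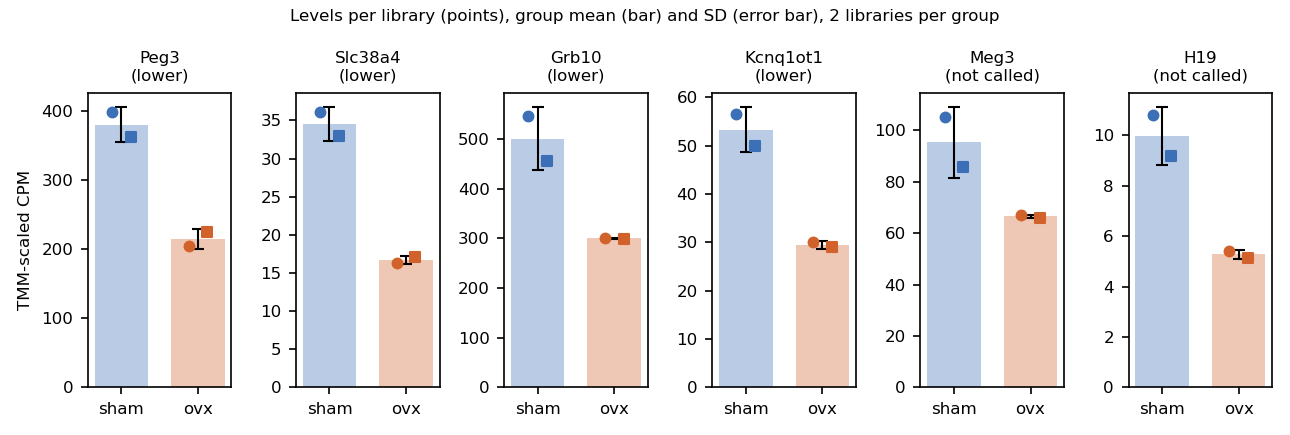
TMM-scaled CPM (vertical axes, from 0, a scale per gene) in each library (points), with group means (bars) and SDs (error bars, n = 2), for the 4 genes that fell and for Meg3 and H19, which did not pass. In all 6 panels both ovariectomy libraries lie below both sham libraries, as held for 23.9% of all genes tested. Of the 34 tested members, 13 lay below in this way and 6 above, and none of those above is shown.

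The stretches before the start of the 4 genes that fell differed in their content of CG pairs. They are shown because the 4 genes moved in the same direction, each taken upstream of the farthest start that RefSeq lists for the gene, from the RefSeq promoter table (GRCm38.p6), minus strand, 5′ to 3′, with annotated exons trimmed off. Capitals mark CG pairs, the sites at which DNA methylation can sit. The Grb10 stretch (chr11:12037421-12037670) holds 40 of them, the Kcnq1ot1 stretch (chr7:143296550-143296797) 5, the Peg3 stretch (chr7:6730432-6730577) 5 and the Slc38a4 stretch (chr15:97055957-97056206) 3.
Peg3: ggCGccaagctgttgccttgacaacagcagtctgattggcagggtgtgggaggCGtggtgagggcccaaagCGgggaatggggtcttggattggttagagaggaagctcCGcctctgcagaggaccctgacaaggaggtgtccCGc
Slc38a4: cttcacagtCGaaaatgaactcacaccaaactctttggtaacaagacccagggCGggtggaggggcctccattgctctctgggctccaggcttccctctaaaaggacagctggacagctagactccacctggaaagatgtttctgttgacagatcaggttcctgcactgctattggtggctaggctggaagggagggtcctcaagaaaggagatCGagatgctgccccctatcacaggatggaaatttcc
Grb10: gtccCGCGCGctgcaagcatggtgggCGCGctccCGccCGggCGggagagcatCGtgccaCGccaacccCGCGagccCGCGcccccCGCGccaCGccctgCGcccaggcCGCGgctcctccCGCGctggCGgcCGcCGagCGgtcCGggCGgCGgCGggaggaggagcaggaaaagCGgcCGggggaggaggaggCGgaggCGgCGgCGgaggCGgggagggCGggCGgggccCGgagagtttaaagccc
Kcnq1ot1: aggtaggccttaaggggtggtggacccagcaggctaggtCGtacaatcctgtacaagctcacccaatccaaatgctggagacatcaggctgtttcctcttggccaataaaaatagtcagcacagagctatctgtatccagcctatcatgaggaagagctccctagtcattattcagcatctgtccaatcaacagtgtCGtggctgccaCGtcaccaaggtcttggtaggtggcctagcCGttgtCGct
The Peg3 stretch covers 146 bases between Peg3 and Usp29, which start 164 bases apart on opposite strands.

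The RefSeq table held promoters for 29 of the 35 members, and the others were H19, Cdkn1c, Rtl1, Peg10, Sgce and Impact. In the 250 bases before the start, the median over the 43 starts of the members was 8 CG pairs, beside 6 over 32851 promoters of the same length. The 40 CG pairs of the upstream Grb10 start put it above 98.7% of all promoters. The letters TGCCGC, which the imprint-protecting factor ZFP57 binds when methylated, were found on either strand at 6 of the 43 starts (14.0%) and in 8.68% of all promoters. The Mest starts at 30738050 and 30738053 are both among the 6, and their windows overlap, so the same letters count at each. As the 43 starts belong to 29 genes, they are not independent. ATGGCG, the core of YY1 sites, was found at 5 starts (11.6%) and in 5.73% of all. A CTCF consensus and the consensus of the oestrogen response element, also searched on both strands, were found at 0 of the 43 starts and in 0.0335% and 0.0639% of all promoters. None of the 4 genes that fell held TGCCGC or ATGGCG in these windows, and by the shares above neither did most promoters. The windows stop at the start, so sequence beyond it was not searched. A match to letters is a description of sequence, and no binding or methylation was measured.

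In the Dlk1-Dio3 cluster on chromosome 12, 0 of 6 genes changed by edgeR (1, Meg3, at an unadjusted p under 0.05). Meg3, the long non-coding RNA expressed from the maternal copy, was the most abundant, at 105 (sham 1), 85.7 (sham 2), 67.1 (ovariectomy 1) and 66.1 CPM (ovariectomy 2). The ovariectomy libraries were lower without overlap, and the difference did not pass (log2 fold change -0.52 ± 0.15 SE, edgeR adjusted p = 0.108). Meg3 was called lower by DESeq2 (adjusted p = 0.0302), with no filter (edgeR adjusted p = 0.0380), at a mean of 5 CPM (edgeR adjusted p = 0.0411) and without sham 2 (edgeR adjusted p = 0.0232).

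Rian, a host of small nucleolar RNAs, and Mirg, a host of microRNAs, follow Meg3 in the same orientation. Rian was at 18.5 and 9.71 CPM with a sham operation, compared with 11.0 and 15.0 CPM in ovariectomy 1 and 2, and Mirg at 1.43 and 0.846 CPM against 1.73 and 0.987 CPM. For both RNAs the groups overlapped and the libraries of a group stood apart more than the groups did. Of the paternally expressed genes of this cluster, Dlk1, a membrane protein that inhibits fat cell formation, had between 9 and 22 counts per library. Rtl1, derived from a retrotransposon, was at 2.63 and 4.41 CPM after the sham operation against 1.78 and 4.47 CPM after ovariectomy. Dio3, which inactivates thyroid hormone, was at 1.56 (sham 1), 2.32 (sham 2), 1.31 (ovariectomy 1) and 1.92 CPM (ovariectomy 2). The groups overlapped for all 3, and their log2 fold changes lay between -0.26 and -0.15, with SEs of 0.57 to 1.02.

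H19, the maternally expressed RNA that is also the precursor of miR-675, was present at a low level. It stood at 10.8 and 9.17 CPM with a sham operation, compared with 5.41 and 5.14 CPM in ovariectomy 1 and 2. The groups did not overlap, and the difference did not pass (log2 fold change -0.92 ± 0.28 SE, edgeR adjusted p = 0.136), nor did it under any of the 12 alternatives (adjusted p between 0.0798 and 0.641). Its paternally expressed neighbour Igf2, which is not among the 35 genes, had between 4 and 11 counts per library and shares 64.5% of its exon length with other genes.

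Beside Kcnq1ot1, the Kcnq1 cluster holds Cdkn1c and Phlda2, both expressed from the maternal copy. Cdkn1c, the CDK inhibitor p57, had the highest level per kilobase after Grb10 and Peg3, at 18.9 CPM per kb. It was at 46.9 and 45.5 CPM after the sham operation against 40.5 and 20.9 CPM after ovariectomy, so that ovariectomy 2 stood apart from the other 3. The difference did not pass (log2 fold change -0.59 ± 0.29 SE, edgeR adjusted p = 0.338). That log2 fold change was -1.12 without ovariectomy 1 and -0.18 without ovariectomy 2. Cdkn1c was called lower with no filter (edgeR adjusted p = 0.0491). It shares 30.7% of its exon length with the antisense gene Gm44732, which had 0 counts in all 4 libraries. Of the exon length of Gm44732, 98.4% is shared with Cdkn1c. How reads in shared exons were handled is not given, so the Cdkn1c level may leave out a part of its reads. Phlda2, which restrains growth of the placenta, was at 2.85 (sham 1), 1.83 (sham 2), 3.51 (ovariectomy 1) and 3.43 CPM (ovariectomy 2) and did not pass (log2 fold change 0.57 ± 0.47 SE). Both ovariectomy libraries of Phlda2 lay above both sham libraries.

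In the Peg3 cluster, the other two genes were rare. Usp29, a ubiquitin-specific protease that starts beside Peg3, had between 14 and 27 counts per library, with overlapping groups (log2 fold change 0.18 ± 0.88 SE). Zim1, a zinc-finger gene expressed from the maternal copy, was at 4.42 and 3.21 CPM with a sham operation, compared with 0.930 and 2.49 CPM once ovariectomized (log2 fold change -1.16 ± 0.60 SE, edgeR adjusted p = 0.374). Both ovariectomy libraries of Zim1 lay below the sham libraries, and they differed more from each other than the sham libraries did. Its log2 fold change was -2.01 without ovariectomy 2 and -0.59 without ovariectomy 1.

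**Figure D3:**
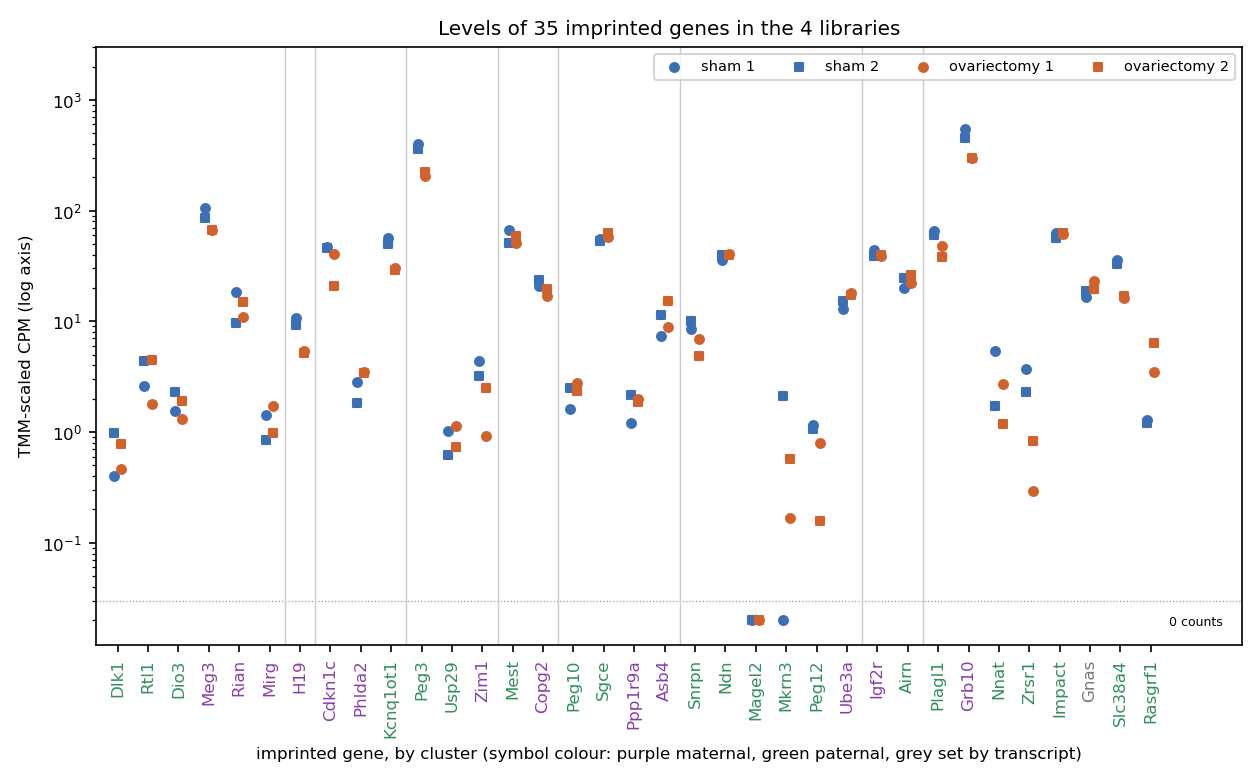
TMM-scaled CPM (vertical axis, log scale) of the 35 imprinted genes in each of the 4 libraries (blue sham, orange ovariectomy, circles and squares for libraries 1 and 2), with values of 0 counts drawn below the dotted line. Genes are ordered by cluster and symbols coloured by the expressed copy, and Grb10 and Peg3 stand highest while Magel2 has 0 counts in all 4.

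On chromosome 6, 0 of 6 genes changed by edgeR, and 0 of them had an unadjusted p under 0.05. Mest, a hydrolase-like protein expressed from the paternal copy and abundant in embryonic mesoderm, was at 66.8 and 51.2 CPM after the sham operation against 51.4 and 59.2 CPM after ovariectomy. The groups overlapped (log2 fold change -0.09 ± 0.17 SE), with a sign that turned with library totals as the only scaling. Copg2, a subunit of the coat of transport vesicles, was at 20.9 (sham 1), 23.6 (sham 2), 17.0 (ovariectomy 1) and 19.4 CPM (ovariectomy 2) and did not pass (log2 fold change -0.29 ± 0.20 SE). Mest shares 23.1% of its exon length with Copg2 on the opposite strand, and Copg2 17.8% with Mest. Both levels may therefore leave out a part of their reads.

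Sgce, a sarcoglycan expressed from the paternal copy, was at 54.9 and 53.2 CPM with a sham operation, compared with 57.5 and 62.2 CPM once ovariectomized (log2 fold change 0.15 ± 0.13 SE). The groups did not overlap for Sgce, with ovariectomy higher. Its neighbour Peg10, derived from a retrotransposon, had 36 to 66 counts per library and overlapping groups, and its mean level was 0.346 CPM per kb beside 5.37 CPM per kb for Sgce. Asb4, a SOCS-box protein, was at 7.40 and 11.4 CPM after the sham operation against 8.96 and 15.1 CPM after ovariectomy. Ppp1r9a (neurabin), an actin-binding protein, had 27 to 49 counts per library. All 4 genes around Peg10 had log2 fold changes above 0, between 0.15 and 0.35, and none passed.

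Of the 6 genes of the Snrpn-Ube3a cluster on chromosome 7, 0 changed by edgeR (0 at an unadjusted p under 0.05) and 1 could not be tested. Ndn (necdin), a growth suppressor of the MAGE family, was the most abundant, at 35.6 (sham 1), 39.6 (sham 2), 40.5 (ovariectomy 1) and 40.0 CPM (ovariectomy 2) (log2 fold change 0.10 ± 0.15 SE). The ovariectomy libraries were higher without overlap, and the groups differed by less than the distance between the sham libraries. Magel2, which lies next to Ndn and belongs to the same family, had 0 counts in all 4 libraries, which allows at most between 0.127 and 0.156 CPM per library (3 counts, counting error only).

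Snrpn, a spliceosome protein, was at 8.47 and 10.0 CPM with a sham operation, compared with 6.93 and 4.83 CPM in ovariectomy 1 and 2. The groups did not overlap, and the difference did not pass (log2 fold change -0.65 ± 0.31 SE, edgeR adjusted p = 0.335). Snrpn shares 34.1% of its exon length with other genes, among them Gm38393, which had 25 counts in ovariectomy 2 and 0 in the other 3 libraries. Snurf, 100% of whose exon length is shared with Gm38393 and Snrpn, had 0 counts in every library. How reads in shared exons were handled is not given, so the Snrpn level may leave out a part of its reads. Ube3a, a ubiquitin ligase expressed from the maternal copy in neurons and from both copies in most other cells, was at 12.9 and 15.3 CPM after the sham operation against 18.01 and 17.35 CPM after ovariectomy (log2 fold change 0.33 ± 0.21 SE). The ovariectomy libraries were higher without overlap. Ube3a shares 27.3% of its exon length with other genes, so its level may leave out reads too.

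The remaining 2 genes of the cluster were rare and uneven. Mkrn3, a ubiquitin ligase that holds back puberty, had 0 and 48 counts in sham and 4 and 11 in ovariectomy libraries, so that all its sham counts came from sham 2 (log2 fold change -1.53 ± 1.75 SE, and 6.03 without sham 2, where the sham group is a library with 0 counts). Peg12, which binds GSK3, had 26 and 24 counts in sham and 19 and 3 in ovariectomy libraries. Its log2 fold change of -1.19 ± 1.05 SE was -2.78 without ovariectomy 1 and -0.45 without ovariectomy 2.

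Igf2r, the receptor that clears IGF2 and carries enzymes to lysosomes, was at 44.0 (sham 1), 38.8 (sham 2), 39.0 (ovariectomy 1) and 39.8 CPM (ovariectomy 2). Airn, the paternal RNA that silences Igf2r in cis, was at 20.03 and 24.75 CPM with a sham operation, compared with 22.4 and 26.0 CPM in ovariectomy 1 and 2. For both genes the groups overlapped (log2 fold changes -0.07 ± 0.15 SE and 0.11 ± 0.20 SE), and the sign of Igf2r turned with library totals as the only scaling. Impact, an inhibitor of the stress kinase GCN2, also had overlapping groups, at 62.8 and 56.3 CPM after the sham operation against 61.0 and 62.6 CPM after ovariectomy (log2 fold change 0.05 ± 0.14 SE).

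Among the other genes outside the clusters, Plagl1, a zinc-finger transcription factor that restrains proliferation, was at 65.6 (sham 1), 60.1 (sham 2), 48.3 (ovariectomy 1) and 38.4 CPM (ovariectomy 2). The ovariectomy libraries were lower without overlap, and Plagl1 did not pass (log2 fold change -0.54 ± 0.16 SE, edgeR adjusted p = 0.129) or under any of the 12 alternatives (adjusted p between 0.0532 and 0.704). Zrsr1, a retrogene related to a splicing factor and lying within Commd1, had 84 and 52 counts in sham and 7 and 16 in ovariectomy libraries. Its log2 fold change, -2.43 ± 0.74 SE, did not pass (edgeR adjusted p = 0.132), but without sham 2 it did (edgeR adjusted p = 0.0341). It was the lowest among the members with all 4 libraries, but not without ovariectomy 1 (-1.84, with Peg12 at -2.78) or without sham 1 (-2.04, with Mkrn3 at -2.53). Without ovariectomy 2 it was -3.32. The host gene Commd1 was at 7.63 and 5.97 CPM with a sham operation, compared with 10.1 and 7.38 CPM in ovariectomy 1 and 2.

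Rasgrf1, a nucleotide exchange factor for Ras expressed from the paternal copy, had the highest log2 fold change of the members with all 4 libraries (without sham 2, that of Mkrn3 was higher). It had 29 and 27 counts in sham and 82 and 123 in ovariectomy libraries, without overlap. The ratio of 3.93 did not pass (log2 fold change 1.97 ± 0.51 SE, edgeR adjusted p = 0.0866). It was called higher by DESeq2 (adjusted p = 0.0405), with no filter (edgeR adjusted p = 0.0249), without sham 1 (edgeR adjusted p = 0.0356) and without sham 2 (edgeR adjusted p = 0.0470).

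Nnat (neuronatin), a small membrane protein of the endoplasmic reticulum, was at 5.35 and 1.74 CPM after the sham operation against 2.71 and 1.19 CPM after ovariectomy, with overlapping groups. Its log2 fold change of -0.85 ± 0.69 SE was 0.18 without sham 1 and -1.55 without ovariectomy 1. Gnas, which encodes the stimulatory G protein that carries signals of the parathyroid hormone receptor, was at 16.7 (sham 1), 18.7 (sham 2), 23.0 (ovariectomy 1) and 19.4 CPM (ovariectomy 2) (log2 fold change 0.27 ± 0.20 SE). Both ovariectomy libraries of Gnas lay above both sham libraries. Of its exon length, 21.97% is shared with genes on the opposite strand. Among these, Gm20721, 99.0% of whose exon length lies in Gnas exons, had 0 counts in 3 libraries and 1 in ovariectomy 1. Whether reads in shared exons were counted is not given in the sources used here, so the Gnas level may leave out a part of its reads.

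**Figure D4:**
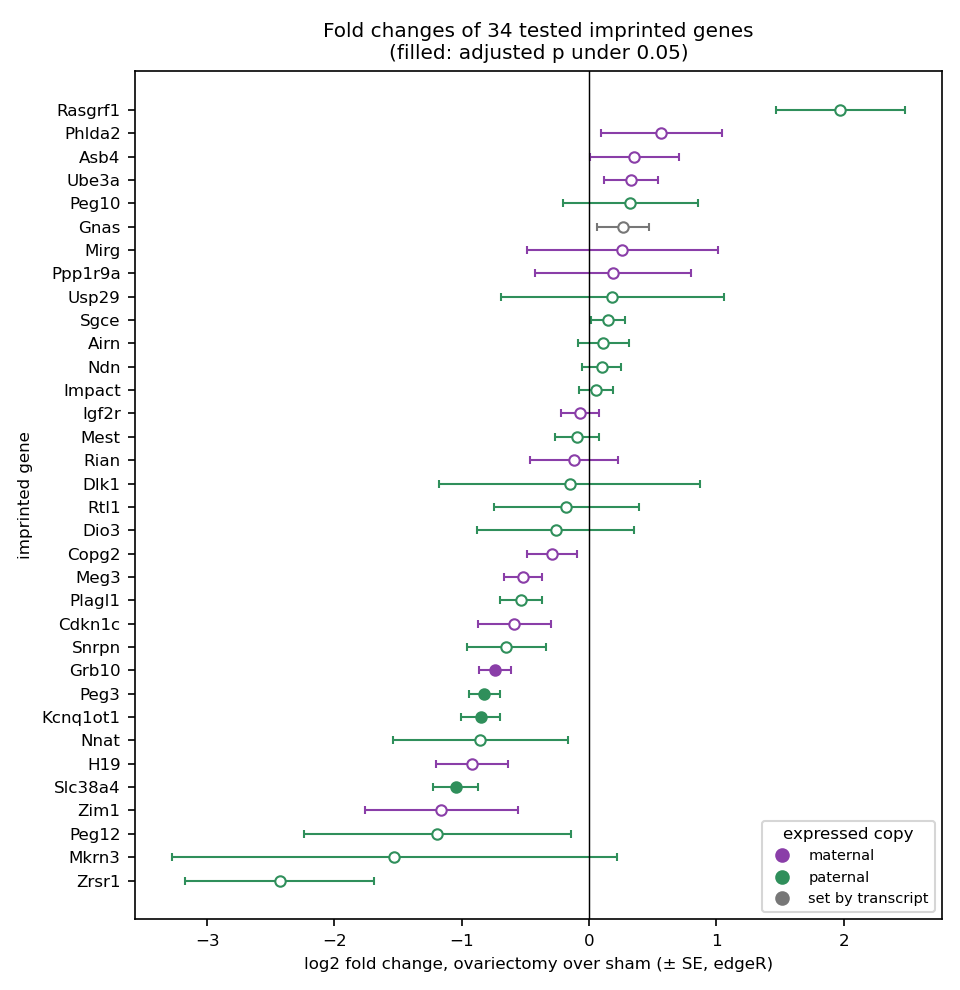
Log2 fold change of ovariectomy over sham (horizontal axis, with SE bars from edgeR, 2 libraries per group) for the 34 tested imprinted genes (vertical axis, sorted), coloured by the expressed copy, with filled points for an adjusted p under 0.05. The 4 filled points lie between -1.05 and -0.74, and the values run from -2.43 (Zrsr1) to 1.97 (Rasgrf1).

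Grouped by the assigned copy, 1 of 13 genes of the maternal group fell (Grb10), and 3 of 20 tested genes of the paternal group fell (Peg3, Slc38a4 and Kcnq1ot1). Among all genes tested 1.20% fell, and 3.07% of those with a mean of at least 20 CPM. The medians of the log2 fold change were -0.12 for the maternal and -0.22 for the paternal group. A difference between the maternal and paternal groups was not tested. The summed level of all 35 genes was 1662 and 1480 CPM with a sham operation, compared with 1092 and 1111 CPM in ovariectomy 1 and 2. Grb10 and Peg3 together made up 56.8% and 55.2% of it in sham and 46.2% and 47.3% in ovariectomy libraries. Without Grb10 and Peg3 the sum was 719 and 663 CPM after the sham operation against 587 and 586 CPM after ovariectomy. That sum still holds Slc38a4 and Kcnq1ot1, which fell. The 21 members with a mean under 20 CPM summed to 103 and 102 CPM in sham and to 96.4 and 105 CPM in ovariectomy libraries. Of the 6 long non-coding members (Meg3, Rian, Mirg, H19, Kcnq1ot1 and Airn), 1 fell, and 3 had an unadjusted p under 0.05. Over all genes 18.4% had an unadjusted p under 0.05.

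Replicate spread among the members differed with their level. The median absolute log2 difference within the sham pair was 0.28 over the members and 0.36 over all genes tested, and within the ovariectomy pair 0.25 and 0.29. Of the 20 tested members with a mean under 20 CPM, 0 changed (3 at an unadjusted p under 0.05), and at that level 1.68% of all genes did. Their median absolute log2 differences were 0.63 within the sham pair and 0.68 within the ovariectomy pair, beside 0.56 and 0.43 over all genes at that level. Over the 14 more abundant members they were 0.17 and 0.09, beside 0.18 and 0.15 over all genes of at least 20 CPM.

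Genes that write and keep imprints were read from a list of 21 genes, of which 18 were tested. In this list 1 gene rose and 0 fell (2 genes had an unadjusted p under 0.05), with a median log2 fold change of 0.04. That is 5.56% of those tested, beside 4.18% of all genes. Dnmt3l, a cofactor that guides DNA methylation in germ cells, had 0 counts in sham 1 and 2, with 41 in ovariectomy 1 and 32 in ovariectomy 2. It was at least 12.7-fold higher against a floor of 3 counts per library (edgeR adjusted p = 0.0409). Among erythroid markers, Rhag likewise had 0 counts in both sham libraries, with 48 in ovariectomy 1 and 145 in ovariectomy 2, and Klf1 had 4 and 0 against 98 and 177. Their part in the Dnmt3l result was not tested. The other gene of the list with an unadjusted p under 0.05 was Arid4a, a chromatin-binding protein, at 33.6 and 31.2 CPM after the sham operation against 22.7 and 21.8 CPM after ovariectomy. Its groups did not overlap, and the difference did not pass (log2 fold change -0.54 ± 0.17 SE, edgeR adjusted p = 0.138). Zfp57 had at most 7 counts, Ctcfl at most 5 and Dppa3 at most 1 count in a library, and these were not tested.

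A list of 39 further genes reported as imprinted in some tissue or stage, of which 28 were tested, held 3 that rose and 1 that fell, with a median log2 fold change of 0.02. That is 14.3% of those tested, beside 4.18% of all genes, 2.98% rising and 1.20% falling. Imprinting of the 4 is tissue-bound or disputed. Tfpi2, a secreted protease inhibitor, rose 9.07-fold from 1.14 ± 0.285 to 10.4 ± 1.44 CPM. Gatm, an enzyme of creatine synthesis, rose 4.68-fold from 5.44 ± 0.952 to 25.5 ± 13.4 CPM, with 16.07 and 35.01 CPM in the ovariectomy libraries. Pon2, a paraoxonase, rose 1.90-fold from 37.6 ± 4.65 to 71.4 ± 16.0 CPM. Dlx5, a homeobox factor of bone formation, fell 2.04-fold from 73.4 ± 9.74 to 35.9 ± 5.11 CPM. Their edgeR adjusted p lay between 0.00647 and 0.0455. Of the CDK inhibitors other than Cdkn1c, 0 of 5 tested genes changed (0 at an unadjusted p under 0.05), the smallest p being those of Cdkn1a and Cdkn2d. Their log2 fold changes were 0.25 ± 0.13 SE and 0.18 ± 0.14 SE (edgeR adjusted p of 0.371 and 0.576).

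Markers of the labelled cells and of others moved in the same libraries, in which 4.18% of all genes changed. Chondrocyte markers were abundant in these cells labelled as stem cells, and 7 of 8 fell, with a median log2 fold change of -0.81 and summed levels of 97769 to 105930 CPM in sham and 56816 to 62247 CPM in ovariectomy libraries. Osteoblast markers fell in 3 of 6 cases, by between 1.81-fold (Alpl) and 1.97-fold (Ibsp). The sums of all 6 were 77938 to 106573 CPM in sham and 65148 to 71143 CPM in ovariectomy libraries. Most of these sums was Col1a1, which did not pass (edgeR adjusted p = 0.258). It was at 62492 and 88749 CPM in sham and at 61075 and 57192 CPM in ovariectomy libraries. Fibroblast markers rose in 6 of 8 cases, from summed levels of 102 and 149.5 CPM in sham to 502 and 560.3 CPM in ovariectomy libraries. Of 6 tested erythroid markers 4 rose, of 6 granulocyte markers 2, and of 6 pericyte and smooth muscle markers 2, while 0 of 8 endothelial, 0 of 5 B cell, 0 of 5 macrophage and 0 of 5 tested adipocyte markers changed (1, 3, 2 and 2 at an unadjusted p under 0.05). Of 3 tested skeletal muscle markers 1 rose, of 5 Schwann cell markers 1 rose and 1 fell. The cycling markers had summed levels of 80.6 to 95.4 CPM in sham and 95.5 to 96.6 CPM in ovariectomy libraries, with 0 of 6 changed (1 at an unadjusted p under 0.05). No marker of these lists had 0 counts in all 4 libraries, and the endothelial markers Cdh5 and Emcn had 0 in sham 1. The part of these markers in the decreases of Peg3, Slc38a4, Grb10 and Kcnq1ot1 was not tested. Of the 6 sorting antigens tested, Cd200 fell 1.65-fold (edgeR adjusted p = 0.0462) and 5 did not pass. Eng (CD105) was at 21.6 (sham 1), 52.1 (sham 2), 75.2 (ovariectomy 1) and 83.1 CPM (ovariectomy 2), with a wide gap between the sham libraries (log2 fold change 1.10 ± 0.35 SE, edgeR adjusted p = 0.150). Enpep (6C3) and Tek (Tie2) also had both ovariectomy libraries above both sham libraries, with log2 fold changes of 1.23 ± 0.47 SE and 1.59 ± 0.99 SE (edgeR adjusted p of 0.220 and 0.474), and Tek had 5 counts in sham 1 against 124 in sham 2. For Itgav (CD51), at 67.3 to 72.0 CPM, and Ptprc (CD45), at 3.55 to 9.55 CPM, the groups overlapped. Thy1 (CD90), with at most 5 counts in a library, was not tested.

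**Figure D5:**
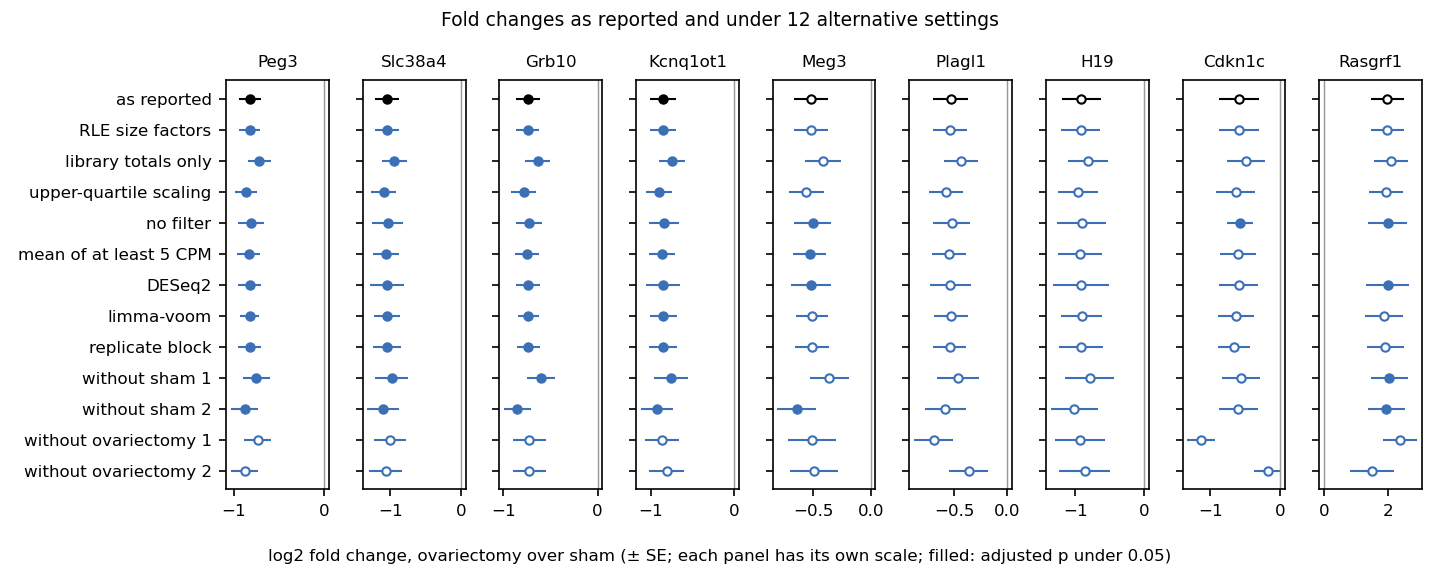
Log2 fold change (horizontal axes, with SE bars and a scale of its own per gene) of 9 imprinted genes as reported and under 12 alternative settings (rows), with filled points for an adjusted p under 0.05. Peg3, Slc38a4, Grb10 and Kcnq1ot1 pass under the 10 alternatives that keep both ovariectomy libraries and under neither of the other two.

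Peg3, Slc38a4, Grb10 and Kcnq1ot1 kept their call under the 8 alternatives that used all 4 libraries and without sham 1 or sham 2. Over all 12 alternatives, the log2 fold change ranged from -0.88 to -0.72 for Peg3, from -1.10 to -0.94 for Slc38a4, from -0.85 to -0.60 for Grb10 and from -0.93 to -0.75 for Kcnq1ot1. Without either ovariectomy library the adjusted p of the 4 genes lay between 0.241 and 0.396.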

How the data were processed

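Bulk RNA-seq was read from 1 table of read counts per Ensembl gene that the authors deposited without normalization. The submitters' processing notes name Trim Galore 0.6.6, featureCounts 2.0.1 and the mm10 build (GRCm38). The aligner, annotation release, strand setting and the handling of reads in shared exons are not stated there. GENCODE M21 (GRCm38) gave symbols, positions, exon lengths and exon overlaps for 55227 of 55487 IDs. Genes were kept by filterByExpr (17120), scaled by TMM and compared with the two-sided quasi-likelihood test of edgeR 4.0.16 (R 4.3.3, limma 3.58.1, DESeq2 1.42.0). The SE is the log2 fold change divided by the square root of F. The test was tried on simulated data. The members and all gene lists were chosen with earlier results of these data known, so no list was tested as a set. All 35 members are named, with up to 4 changed genes of each other list (or the 2 of smallest p). Same-numbered libraries did not deviate together (correlation 0.004 across genes).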

Additional observations from a re-analysis of the deposited data

How the results depend on the processing

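Peg3, Slc38a4, Grb10 and Kcnq1ot1 were called lower with RLE size factors, library totals, upper-quartile scaling, no filter, a mean of 5 CPM, DESeq2, limma-voom and the replicate block. All genes called were 716, against 1656 with no filter, 1105 at a mean of 5 CPM and 1416 with DESeq2, and between 0 and 1835 with a library left out (0 without ovariectomy 1 or 2, 1290 without sham 1 and 1835 without sham 2). The imprinted genes called were 4, against 7 with no filter and between 0 and 7 with a library left out (0 without ovariectomy 1 or 2 and 7 without sham 2). With the replicate block, which pairs libraries only by number, 1074 genes and 4 members were called, the same 4. The cause of these differences was not tested. No called member turned its sign. Among the others, Mest (0.010) and Igf2r (0.033) turned with library totals and Mkrn3 (0.53) with limma-voom. With a library left out, the log2 fold change turned within these ranges: Dlk1 -0.65 to 0.63, Rtl1 -0.97 to 0.36, Dio3 -0.55 to 0.058 (0.0053 without ovariectomy 1), Rian -0.50 to 0.42, Mirg -0.19 to 0.69, Usp29 -0.16 to 0.59, Mest -0.26 to 0.11, Ppp1r9a -0.17 to 0.69, Asb4 -0.054 to 0.71, Mkrn3 -2.61 to 6.03, Igf2r -0.15 to 0.024, Airn -0.030 to 0.28, Nnat -1.55 to 0.18 and Impact -0.012 to 0.14. With 1 library in a group, that library is assumed to vary like the other group. Low counts limit the members under 20 CPM.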
